A study of Sus scrofa with 6 samples.

Results

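The genes described here encode the machinery of oxidative phosphorylation (OXPHOS), and they were taken by symbol from the gene list of the files. Every nuclear gene whose symbol starts with NDUFA, NDUFB, NDUFC, NDUFS, NDUFV, SDH, UQCR, COX4, COX5, COX6, COX7, COX8 or ATP5 was included, with the NDUFAF assembly factors left out. The 13 protein-coding genes of the mitochondrial genome were kept apart from them. The rule gave 86 genes of the 20648 listed, 73 nuclear and 13 mitochondrial. Of the nuclear genes 37 belong to complex I, 4 to complex II, 2 to complex III, 10 to complex IV and 15 to complex V. The other 5 (SDHAF1, SDHAF2, SDHAF3, ATP5S and ATP5SL) carry the same prefixes but encode no structural subunit. The files use older symbols such as ATP5A1, ATP5B and ATP5G1. Only UQCR10 and UQCRB stand for the nuclear genes of complex III, and COX4I1, COX5A, UQCRC1, UQCRC2 and UQCRFS1 were not analysed here. COX8H had 0 UMIs in all cells.

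Oxidative phosphorylation is the last stage of respiration, in which electrons from NADH and succinate pass along the inner mitochondrial membrane to oxygen. Complex I accepts electrons from NADH, complex II from succinate, complex III hands them to cytochrome c and complex IV reduces oxygen. The proton gradient that results drives ATP synthase, complex V. Apart from complex II, which is wholly nuclear, each complex is assembled from subunits of the nuclear and the mitochondrial genome, so its expression is split between these compartments. In the gut, absorptive cells and dividing cells are known as heavy users of ATP.

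Ileal mucosa of suckling piglets of pure Large White sows was scraped, dissociated with EDTA and TrypLE and run on the 10x Chromium system, with 1 library and 1 chip channel for each of days 0, 1, 3, 7, 14 and 21 after birth. The labels give male animals and ileum at every age, the methods give 5 piglets an age, and the sources used here do not say how their cells were combined. No animal was treated, all were fed maternal milk, and age was the only difference between the libraries that the labels give. A unique molecular identifier (UMI) marks each captured transcript, so that the values are counts of molecules read at their 3′ ends, which do not rank one transcript against another.

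Barcodes with at least 1000 UMIs and 500 genes were taken as cells, which gave 10836, 11494, 11361, 12634, 15956 and 13818 cells in order of age, with library medians between 3693 and 4560 UMIs. Libraries held 77391932 to 100348769 UMIs in all. B cells were called from MS4A1, PAX5 and POU2AF1 (at least 2 UMIs together), T cells from CD3E and CD3G (at least 2) and epithelial cells from EPCAM, KRT8 and VIL1 (at least 5), and a cell that met more than 1 rule was left out. B cells numbered 2201, 3439, 8039, 10257, 14663 and 13023 from the youngest to the oldest library, and T cells 1777, 1639, 369, 453, 370 and 205. Epithelial cells numbered 2715, 1010, 89, 202 and 27 on days 0 to 14, and the 1 cell of day 21 was not used. Marker genes that the rules did not use were read as a check of the names. The B cell list stood at 13 to 19.6 UMIs per 10000 nuclear UMIs in B cells and the T cell list at 3.20 to 10.2 in T cells. The epithelial list stood at 27.1 to 72.5 in epithelial cells of days 0 to 14, and in B cells at 0.994 on day 0 and 0.00774 on day 21. Erythroid genes were at 13 in B cells on day 21, at 3.40 on day 7 and at 0.0517 to 0.983 in the other libraries. Of 75427 distinct cell barcodes 672 occurred in more than 1 library, 31 to 68 for each pair of libraries. With 1 library an age there is no replicate error between ages, so no age difference was tested. Contrasts between lineages were made inside libraries, with the library as the replicate. Each library is another age, so the spread between them holds age as well as sampling. Intervals are 95% and cover counting error only.

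The nuclear OXPHOS genes took a larger share of the UMIs of B cells in the 5 later libraries than on day 0. Summed over the 73 genes, B cells held 121.2 UMIs per 10000 nuclear UMIs on day 0 (exact Poisson interval 120.4 to 121.9), followed by 145.3, 177.7, 158.3, 162.5 and 173.9 in the libraries of days 1 to 21. Day 0 was the lowest and day 3 the highest, but day 3 was the highest only in the deepest of 4 depth bins (211.2 in cells of at least 8000 UMIs), and day 21 was in the other 3. In T cells the sum was 129.2, 145.2, 166.0, 179.1, 151.8 and 160.2, again lowest on day 0 but highest on day 7, an order that depended on the measure: with ribosomal protein genes out of the denominator day 14 was lowest (203.8) and day 3 highest (261.3), and in T cells of 4000 to 8000 UMIs day 21 was highest (173.9). Epithelial cells were higher from day 0 on, with 212.0, 199.4, 227.8, 193.0 and 194.0 on days 0 to 14, so that in each of these 5 libraries they lay above both lymphoid lineages.

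**Figure D1:**
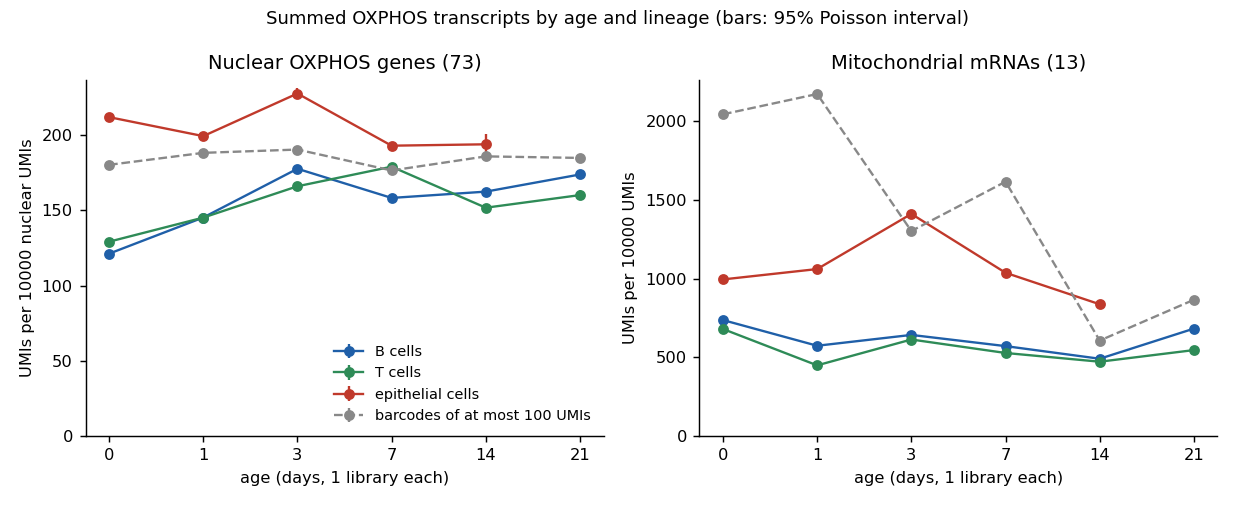
Summed UMIs of the 73 nuclear OXPHOS genes per 10000 nuclear UMIs (left) and of the 13 mitochondrial mRNAs per 10000 UMIs (right), by age in days with 1 library each, for B, T and epithelial cells and for barcodes of at most 100 UMIs (dashed); bars are 95% Poisson intervals, mostly smaller than the points. Epithelial cells lie above B and T cells in both panels on days 0 to 14, and the nuclear sum of B cells goes from 121.2 on day 0 to 173.9 on day 21.

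The mitochondrial mRNAs did not follow the nuclear genes. In B cells the 13 mRNAs summed to 735.8 UMIs per 10000 UMIs on day 0, followed by 572.5, 641.4, 570.2, 489.9 and 681.5 in the libraries of days 1 to 21. Here day 0 was the highest and day 14 the lowest. Split by depth, the ratio of day 21 to day 0 was 1.45 in B cells of 1000 to 2000 UMIs, 0.991 in those of 2000 to 4000, 0.815 in those of 4000 to 8000 and 1.11 above, so its direction differed between the bins. T cells held 679.0, 447.9, 612.2, 526.6, 471.0 and 544.9, with day 0 highest and day 1 lowest. As a result the number of mitochondrial mRNA UMIs per nuclear OXPHOS UMI in B cells was 6.55 on day 0 and 3.17 to 4.21 in the other 5 libraries. In epithelial cells the mitochondrial sum was 994.2, 1060.1, 1410.8, 1036.6 and 836.3 on days 0 to 14. Day 3 was the highest here and in cells of at least 8000 UMIs (1241), while in cells of 4000 to 8000 UMIs day 1 was (2112, beside 1879 on day 3 and 1059 on day 0).

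Other measures moved with these sums. In B cells the erythroid genes were at 0.0517 per 10000 on day 0 and at 13 on day 21, and 5 myeloid markers were at 0.141 on day 0, 2.01 on day 1 and 0.0153 to 0.101 later. In T cells the myeloid markers were at 0.157 on day 0 and 2.63 on day 1. The part of these cell types in the sums was not tested. Genes of cytosolic ribosomal proteins made up 42.5% of the nuclear UMIs of B cells on day 0 and 27.6% on day 14 (29.6% on day 21), and in epithelial cells 29.8% on day 0 and 6.77% on day 14. With these genes out of the denominator the nuclear sum of B cells was 210.6 on day 0, 277.4 on day 3 and 246.9 on day 21, a ratio of day 21 to day 0 of 1.17 in place of 1.43, and the ratio in T cells was 1.05 in place of 1.24. The difference in B cells was also present at matched depth: among B cells of 4000 to 8000 UMIs the sum went from 123.6 to 172.6 between day 0 and day 21 (ratio 1.40), and in the bins below and above it the ratio was 1.35, 1.52 and 1.18. Barcodes of at most 100 UMIs, which hold RNA free in the suspension or from damaged cells, had nuclear sums of 176.6 to 190.5 and mitochondrial sums between 605.3 (day 14) and 2173 (day 1) over the 6 libraries. In these barcodes the epithelial marker list was 23.5 on day 0 and 0.592 on day 21. The share of epithelial cells with a mitochondrial share of at least 25% was 7.55%, 14.4%, 18.0%, 22.8% and 0% from day 0 to day 14, against 1.23% to 3.59% of B cells. The part of free RNA and of damaged cells in the sums was not tested.

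**Figure D2:**
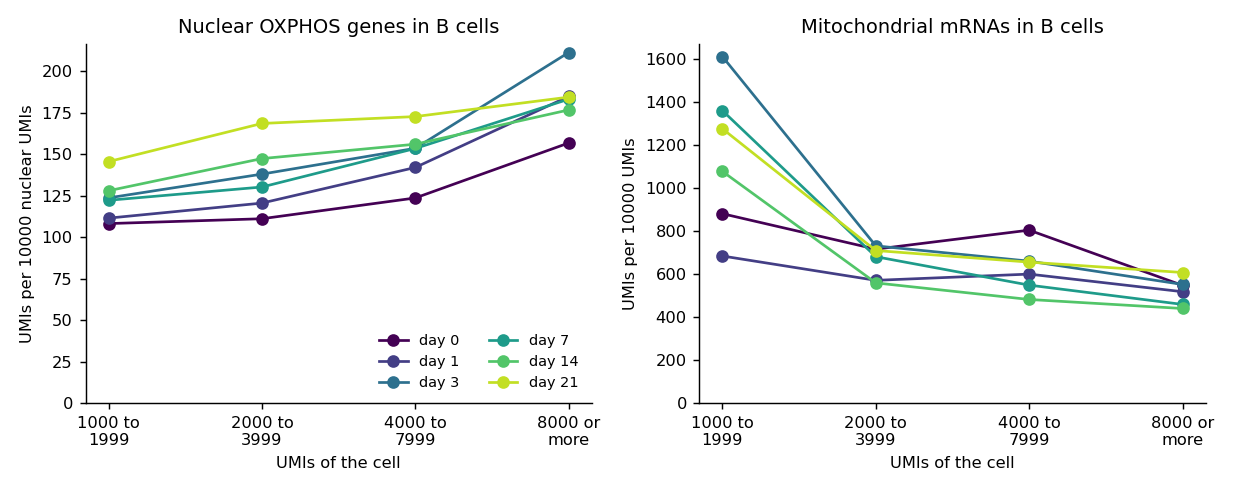
Nuclear OXPHOS sum per 10000 nuclear UMIs (left) and mitochondrial mRNA sum per 10000 UMIs (right) in B cells, split by the UMIs of the cell into 4 bins, with a line for each age. The nuclear sum rises with depth in each library, and in all 4 bins the day 21 library lies above the day 0 library, while the mitochondrial sum is highest in the shallowest bin in all 6 libraries.

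Per 10000 nuclear UMIs all 5 complexes were higher in B cells on day 21 than on day 0. With ribosomal protein genes out of the denominator the whole sum was 210.6 on day 0 and 246.9 on day 21. The complexes were not computed that way, so their part in this smaller difference is not known. Complex I genes (NADH dehydrogenase) went from 43.0 UMIs per 10000 on day 0 to 60.6 on day 21, complex II (succinate dehydrogenase) from 1.03 to 1.58, complex III from 1.82 to 4.08, complex IV (cytochrome c oxidase) from 27.2 to 34.5 and complex V (ATP synthase) from 46.7 to 71.0. Complexes III, IV and V were highest on day 3, at 4.34, 38.4 and 72.3, and complex II on day 14, at 1.91. Of the mitochondrially encoded subunits in B cells, those of complex I stood at 136.0 UMIs per 10000 on day 0 and at 104.9 on day 21, those of complex IV at 431.4 and 410.9 and those of complex V at 102.9 and 101.3, with day 14 lowest for each (78.3, 299.3 and 61.7).

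Gene by gene, 38 of the 72 nuclear OXPHOS genes with at least 30 UMIs were past 1.5-fold higher in B cells on day 21 than on day 0, while 45.3% of all genes were past that fold, and 1 was lower, against 19.2% of all genes. The median fold was 1.56 for the nuclear OXPHOS genes and 1.40 for all genes, so the shift of these genes was near that of the whole table. At 2-fold 12 were higher, below the 27.2% of all genes. The 5 with the largest fold were NDUFA4L2, a paralogue of a complex IV subunit known to be induced by hypoxia, SDHAF3, an assembly factor of complex II, UQCR10, a small subunit of complex III, NDUFV2, an iron-sulfur subunit of the NADH-binding arm of complex I, and SDHAF2, which helps to insert FAD into SDHA. The level of NDUFA4L2 in B cells was 0.0328, 0.00727, 0.0504, 0.0777, 0.110 and 0.128 UMIs per 10000 from day 0 to day 21, a 3.9-fold difference between the first and last library (interval 2.64 to 6.01). SDHAF3 was 3.37-fold higher on 169 and 7 UMIs (1.60 to 8.5), so its size is poorly fixed. UQCR10 was 2.62-fold, NDUFV2 2.53-fold and SDHAF2 2.52-fold higher. Of the catalytic genes SDHA, the flavoprotein of complex II, was 2.17-fold, NDUFS1 2.0-fold, ATP5B (the beta subunit of ATP synthase) 1.91-fold and ATP5A1 (its alpha subunit) 1.68-fold higher.

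NDUFV2 was among the 5 largest folds in both lymphoid lineages. In B cells its level was 0.617, 0.737, 1.14, 1.46, 1.54 and 1.56 UMIs per 10000 from day 0 to day 21, and in T cells 0.674, 0.823, 0.982, 2.42, 1.55 and 1.54. The 3 libraries of days 7 to 21 lay above the 3 of days 0 to 3 in both lineages. Epithelial cells held 1.93, 1.89, 2.0, 2.71 and 2.59 on days 0 to 14, above B cells in every library. NDUFV2 was also higher in the later libraries among barcodes of at most 100 UMIs, with 1.5, 1.57, 1.55, 2.06, 1.68 and 2.15, and the part of free RNA in these values was not tested.

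COX7A1, the heart and muscle isoform of a complex IV subunit, was the nuclear member that was past 1.5-fold lower in B cells. Its level was 0.160, 0.184 and 0.142 UMIs per 10000 on days 0, 1 and 3 and 0.0366, 0.0128 and 0.0148 on days 7, 14 and 21, a ratio of day 21 to day 0 of 0.092 (0.069 to 0.12). The summed stromal markers (5 genes, among them COL1A1 and DCN) in the same B cells were 0.715, 0.910 and 0.505 per 10000 on days 0 to 3 and 0.0127, 0.00995 and 0.0188 afterwards, and COX7A1 itself was 0.276 in barcodes of at most 100 UMIs on day 0 and 0.0124 on day 21. These values moved with COX7A1, and their part in its change was not tested.

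In T cells 16 of 71 nuclear OXPHOS genes were past 1.5-fold higher on day 21 than on day 0, against 36.2% of all genes, and 2 were past it in the other direction, against 16.5%. The median fold was 1.22, beside 1.27 over all genes. NDUFV2 (2.29-fold, 1.80 to 2.88), SDHAF2 (2.15-fold), the accessory complex I subunits NDUFC1 (1.98-fold) and NDUFA6 (1.86-fold), and UQCR10 (1.89-fold) had the largest folds. The day 21 library held only 205 T cells. SDHD, a membrane anchor of complex II, had 3 UMIs there, a ratio to day 0 of 0.41 with a counting interval of 0.083 to 1.24, and ATP5S had 4 UMIs, a ratio of 0.60 (0.16 to 1.61), so a fall of these genes was not detectable at this depth.

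In epithelial cells the last library with more than 30 cells was that of day 7, which was set against day 0. There 3 of 72 nuclear OXPHOS genes were past 1.5-fold higher, against 32.1% of all genes, and 4 lower, against 21.8%, and the median fold was 0.911 beside 1.14 over all genes. NDUFA4L2 was 3.57-fold higher on 4 UMIs (0.92 to 9.98), and ATP5S and COX7A1 were both 1.58-fold higher. On the lower side were NDUFC1 (0.55-fold), COX7C, a small subunit of complex IV (0.62-fold), and NDUFA8 (0.66-fold). SDHAF3 had 0 UMIs on day 7, where 3 UMIs would have been 0.0261 per 10000, and stood at 0.0257 on day 0, so its difference was not detectable. The epithelial cells of day 7 had a median of 4615 UMIs and those of day 0 of 9817, and the part of depth in these folds was not tested.

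COX7C and ATP5E, chosen after their values were seen, had their highest levels on day 3 in all 3 lineages. ATP5E, the epsilon subunit of ATP synthase, had 5.85, 7.97, 11.5, 4.91, 5.15 and 5.89 UMIs per 10000 in B cells from day 0 to day 21, and 5.67, 6.51, 10.3, 4.70, 5.22 and 6.45 in T cells. COX7C had 2.96, 4.02, 4.74, 2.12, 2.42 and 2.71 in B cells. Barcodes of at most 100 UMIs had the same peak, with 5.94, 9.0, 11.8, 6.16, 6.39 and 6.52 for ATP5E, so the day 3 library as a whole stood apart for these genes, and whether this is age or the library cannot be told apart.

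With the libraries split into days 0 to 3 and days 7 to 21, a division chosen after the values were seen, 24 of 72 nuclear OXPHOS genes were higher without overlap in the later B cell libraries, against 31.1% of all genes, and 5 lower, against 17.0%. Of the mitochondrial mRNAs 3 of 13 were lower in the later B cell libraries, against the same 17.0%. In T cells 22 of 72 nuclear genes were higher, against 20.3% of all genes, and 0 lower, while 4 of 13 mitochondrial mRNAs were lower, against 6.42%. Barcodes of at most 100 UMIs had 12 of 71 higher, against 15.4%, and 11 lower, against 18.0%, and 6 of 13 mitochondrial mRNAs were lower in them, among them the 4 of T cells (ND2, ND3, ND4L and ND6). Of the 617 genes of the whole table that were higher in B cells, T cells and these barcodes alike, 9 were nuclear OXPHOS genes. Among these 9 were ATP5D, ATP5F1, NDUFB11, NDUFB3, NDUFB8, NDUFS3, NDUFV2 and SDHAF2. The mitochondrial mRNAs ND3, ND4L and ND6 were lower in all 3 groups, 3 of 273 genes. The genes tested in all 3 groups were not counted, so no share of all genes stands beside these numbers. They are not read as a result about the members.

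The makeup of the mitochondrial mRNAs also differed between libraries. ND3, a membrane subunit of complex I, made up 2.96%, 3.61% and 3.61% of the mitochondrial mRNA UMIs of B cells on days 0, 1 and 3, and 1.39%, 1.58% and 2.13% on days 7, 14 and 21. In T cells its share was 2.80%, 3.43%, 3.51%, 1.35%, 1.36% and 2.03%, and in epithelial cells 3.32%, 3.46%, 4.0%, 1.20% and 1.03% on days 0 to 14. The later libraries thus lay below the earlier ones in each lineage without overlap. Barcodes of at most 100 UMIs gave 2.76%, 3.22%, 3.13%, 1.32%, 1.33% and 2.25%, also without overlap, and age and library cannot be told apart. COX1, the catalytic subunit of complex IV, had a share of 12.7% in B cells on day 0 and 15.6% on day 21, and in epithelial cells of 13.3%, 18.4%, 12.7%, 17.2% and 24.1% on days 0 to 14.

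**Figure D3:**
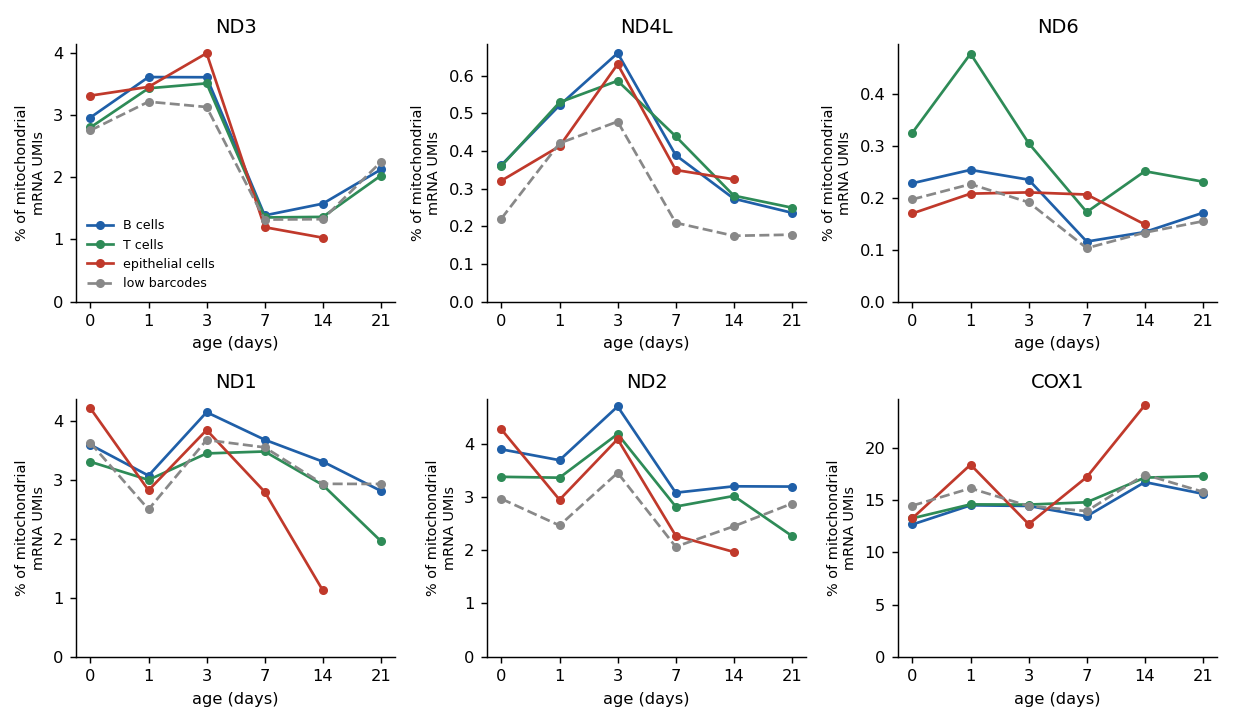
Share of the mitochondrial mRNA UMIs (in %) taken by ND3, ND4L, ND6, ND1, ND2 and COX1 at each age in days, for B, T and epithelial cells and for barcodes of at most 100 UMIs (dashed), 1 library an age; epithelial cells end at day 14. The share of ND3 in B cells is 2.96% to 3.61% on days 0 to 3 and 1.39% to 2.13% later, with the dashed line beside it, and the share of COX1 in epithelial cells reaches 24.1% on day 14.

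Against day 0, 3 of the 13 mitochondrial mRNAs were past 1.5-fold lower in B cells on day 21, against 19.2% of all genes: ND3 (0.66-fold), ND4L (0.60-fold) and ATP8 (0.54-fold). In T cells 6 were, against 16.5%, with ND1 at 0.48-fold, ND2 at 0.54-fold, ND4L at 0.56-fold, ND6 at 0.57-fold, ND3 at 0.58-fold and ATP8 at 0.29-fold on 4 UMIs (0.079 to 0.77). In epithelial cells ND3 (0.38-fold) and ND2 (0.56-fold) were lower on day 7, against 21.8%. The counts in B and epithelial cells were thus near the share of all genes. Each mitochondrial mRNA past the fold was lower, and of the 6 in T cells 5 encode complex I subunits, as do 7 of all 13. Some of these genes overlap on the mitochondrial genome of Sscrofa11.1: ND4L ends at position 11365 and ND4 starts at 11359, ATP8 ends at 9162 and ATP6 starts at 9120, and ND5 ends at 14755 while ND6, which lies on the other strand, starts at 14739. How reads in the shared bases were counted was not examined. The counts of ATP8, ND4L and ND6, the lowest of the 13, are therefore uncertain.

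Epithelial cells held more OXPHOS transcripts than B cells of the same library. The ratio of the nuclear sums was 1.75, 1.37, 1.28, 1.22 and 1.19 from day 0 to day 14, a mean log2 ratio of 0.43 ± 0.22 (SD, n = 5 libraries, above 0 in 5 of 5). For the mitochondrial sums the ratios were 1.35, 1.85, 2.20, 1.82 and 1.71, a mean log2 ratio of 0.82 ± 0.25 (above 0 in 5 of 5). The direction was the same in each library, while the nuclear ratio was largest on day 0 and the mitochondrial ratio smallest there. By complex the mean log2 ratio of the nuclear sums was 0.52 ± 0.24 for complex I, 1.08 ± 0.53 for complex II, 0.70 ± 0.51 for complex III, 0.49 ± 0.17 for complex IV and 0.30 ± 0.28 for complex V. With ribosomal protein genes out of the denominator the nuclear ratio was 0.11 ± 0.24 and above 0 in 3 of 5 libraries, so the nuclear difference was then within its spread. Cells of at least 8000 UMIs held 1553 of 2715 epithelial cells on day 0 and 726 of 1010 on day 1. There the ratio of sums was 1.18 for nuclear genes and 1.84 for mitochondrial mRNAs (geometric means, above 1 in 4 of 4). In cells of 4000 to 8000 UMIs the ratio of sums was 1.31 for nuclear genes and 2.15 for mitochondrial mRNAs (geometric means, above 1 in 5 of 5). Below that depth fewer libraries could be compared: the nuclear ratio was 1.35 in cells of 2000 to 4000 UMIs (above 1 in 2 of 3 libraries) and 1.02 in those of 1000 to 2000 UMIs (1 of 2), with the epithelial cells of day 7 below the B cells in both bins (113.8 beside 130.2 and 80.8 beside 122.2 UMIs per 10000), while the mitochondrial ratio was above 1 in each of these libraries.

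For single genes the quasi-likelihood test of edgeR was run on UMIs summed per library and lineage, with the library as a block and the TMM scale. On that scale the median log2 fold change of all 12582 genes tested was −0.28, and gene values on it cannot be read against the ratios of sums, which are per 10000 UMIs. Of 72 nuclear OXPHOS genes 5 were higher in epithelial than in B cells at an adjusted p below 0.05, against 23.1% of all genes, and 10 lower, against 30.8%, a smaller share than the background in either direction. With the size factors of DESeq2 the split was 9 higher and 5 lower, against 24.4% and 27.5% of all genes. The median of the nuclear OXPHOS genes was −0.019, and its sign was not stable: it was above 0 under all alternatives except the one without day 0, up to 0.19 in cells with a mitochondrial share under 25% and also without day 7.

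The higher genes were SDHA (log2 fold change 0.96 ± 0.29 SE, adjusted p = 0.0244), the accessory complex I subunits NDUFB2 (0.90 ± 0.21, adjusted p = 0.00882) and NDUFV3 (0.73), COX7A2, the widely used isoform of complex IV (0.69), and NDUFV2 (0.59). SDHA stood at 1.02, 1.15, 0.515, 0.984 and 1.11 UMIs per 10000 in epithelial cells on days 0 to 14 and at 0.212, 0.254, 0.371, 0.422 and 0.521 in B cells. No epithelial value lay below the B cell value of its library, and the value of day 3 rests on 35 UMIs. NDUFB2 was at 3.07, 2.62, 3.19, 2.55 and 2.96 in epithelial cells and at 0.831, 1.08, 1.34, 1.12 and 1.13 in B cells, and of the 5 it was the gene that kept its call without any 1 of the libraries.

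The lower genes included both members of the NDUFA4 pair, which encode a subunit now counted to complex IV. NDUFA4L2 had a log2 fold change of −1.81 ± 0.44 (adjusted p = 0.0105) and NDUFA4 of −1.11 ± 0.26 (adjusted p = 0.00941). NDUFA4 stood at 1.91, 1.72, 1.5, 1.57 and 1.79 UMIs per 10000 in epithelial cells and at 1.73, 2.58, 3.49, 3.08 and 2.31 in B cells, so that day 0, where the epithelial value was higher, went the other way. NDUFA4L2 rested on 35, 9, 2, 4 and 0 UMIs in the epithelial cells of the 5 libraries. ATP5G2 (−0.98), a gene for subunit c of ATP synthase, the complex II assembly factor SDHAF1 (−0.93) and the accessory complex I subunit NDUFA2 (−0.82) followed. ATP5G1, ATP5G2 and ATP5G3 encode the same mature subunit c, and the log2 fold changes of ATP5G1 (0.67) and ATP5G3 (0.03) did not pass the threshold. NDUFA4, NDUFA4L2, ATP5G2 and NDUFA2 were also lower in cells of 4000 to 8000 UMIs, with 6 of the 10 lower calls and 3 of the 5 higher calls kept. None of the 10 lower calls held in all 5 fits that left out a library, and those of NDUFA4 and NDUFA4L2 held in 4 of them. ATP5L, ATP5E, COX6C, NDUFB5 and NDUFS5, also called lower, were higher per 10000 nuclear UMIs in 2 or 3 of the 5 libraries, so their direction depends on the scale.

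None of the 13 mitochondrial mRNAs passed the adjusted threshold of edgeR between epithelial and B cells (1 at an unadjusted p under 0.05, 2 with DESeq2), with log2 fold changes from −0.079 (ATP8) to 0.61 (COX1, adjusted p = 0.0539). In cells of 4000 to 8000 UMIs 8 were higher, against 22.1% of all genes there, led by COX1 (1.06, adjusted p = 0.00594), ND6 (0.98) and ND4L (0.95). The call therefore depends on which cells are compared. Without the day 14 library, which held 27 epithelial cells, 9 nuclear genes were higher and 5 lower, against 27.4% and 25.6% of all genes. Leaving out each of the 4 other libraries in order of age gave 2, 1, 3 and 3 higher and 2, 2, 7 and 1 lower genes. Of all genes 20.8%, 18.7%, 21.0% and 21.4% were higher in these fits and 20.5%, 20.3%, 26.9% and 17.7% lower. In simulated data the test recovered 0% of genes changed 2-fold and 56% of those changed 4-fold in this comparison. Most of the differences named here are under 2-fold. The simulation changed only 200 genes, while 2912 were called higher and 3876 lower in the data, so the adjusted threshold was stricter there. It therefore does not give the power for the genes named here, which is not known.

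**Figure D4:**
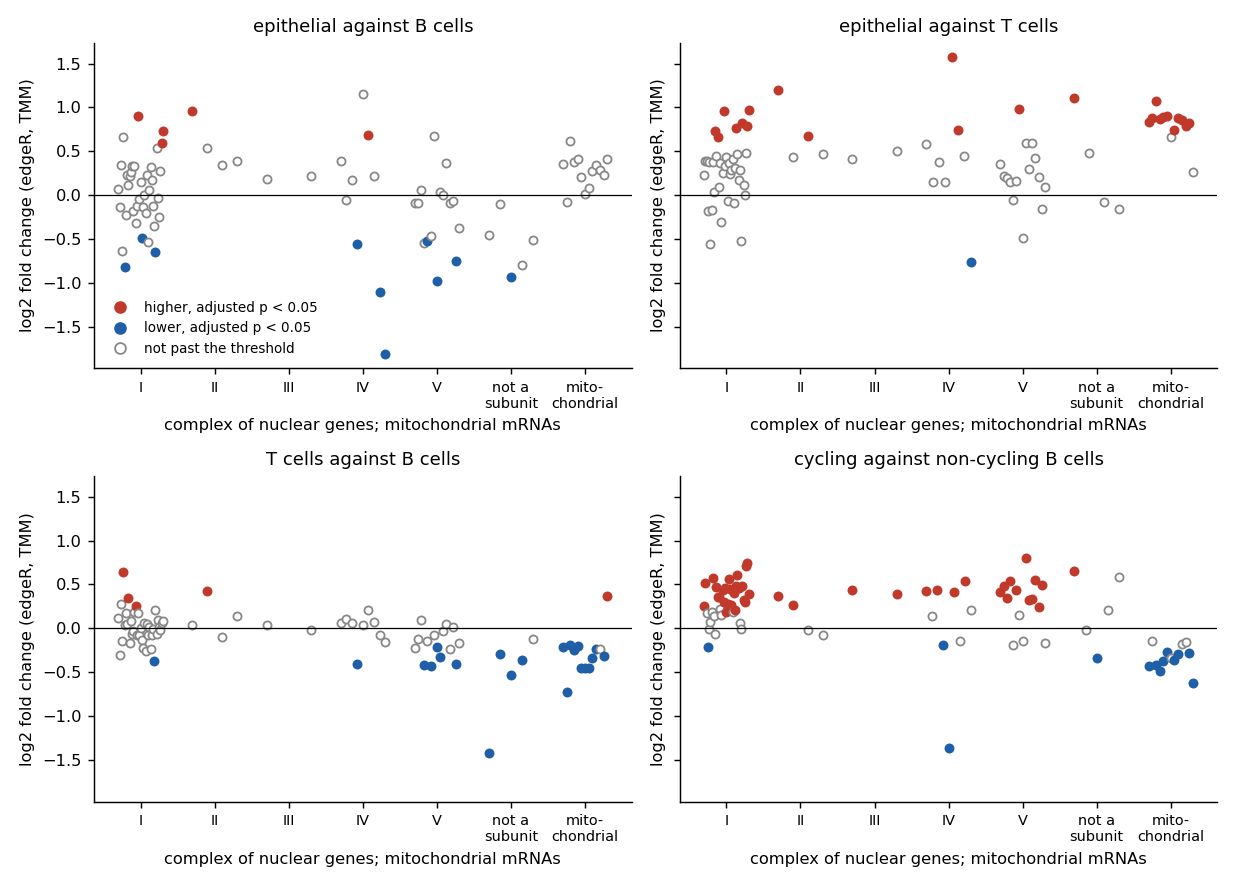
Log2 fold change (edgeR, TMM scale) of each OXPHOS gene in 4 comparisons made inside libraries, with nuclear genes by complex and the mitochondrial mRNAs at the right; filled points passed an adjusted p of 0.05 (red higher, blue lower) and open points did not. In cycling against non-cycling B cells 45 nuclear genes are red while 9 mitochondrial mRNAs are blue, and against T cells epithelial cells have 11 mitochondrial mRNAs in red.

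Against T cells, epithelial cells differed most in the mitochondrial mRNAs. The ratio of the mitochondrial sums was 1.46, 2.37, 2.31, 1.97 and 1.78 from day 0 to day 14 (mean log2 ratio 0.96 ± 0.29, n = 5, above 0 in 5 of 5). With edgeR 11 of 13 mitochondrial mRNAs were higher, against 24.9% of all genes, and 0 lower (0 also at an unadjusted p under 0.05 and with DESeq2). Their log2 fold changes went from 0.74 (ND2) to 1.08 (COX1, ± 0.24, adjusted p = 0.00518), and ND1 (0.66, adjusted p = 0.0777) and ND6 (0.26) did not pass. COX2, which holds the copper site that takes electrons from cytochrome c, was at 0.86, COX3 at 0.89, CYTB, the core of complex III, at 0.91, and ATP6, the proton channel subunit of ATP synthase, at 0.83. The same 11 passed in cells of 4000 to 8000 UMIs. The number fell to 3 without day 1 and to 1 without day 3 or without day 7, so this count rests on those libraries, while it was 9 without day 0 and 12 without day 14. Of all genes 18.1%, 22.0% and 20.8% were higher without day 1, day 3 and day 7. Over all fits that left out a library the share was 18.1% to 28.3%.

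The nuclear sums of epithelial cells were 1.64, 1.37, 1.37, 1.08 and 1.28 times those of T cells from day 0 to day 14 (mean log2 ratio 0.42 ± 0.22), and 0.13 ± 0.24 with ribosomal protein genes out of the denominator. By depth the ratio was 0.915 at 1000 to 2000 UMIs (above 1 in 1 of 2 libraries), 1.24 at 2000 to 4000 (2 of 3), 1.27 at 4000 to 8000 (5 of 5) and 1.20 above (4 of 4). Of 70 nuclear OXPHOS genes 13 were higher in epithelial than in T cells, below the 24.9% of all genes, and 1 was lower, against 22.1%. The median was 0.36, beside −0.05 over all genes, and was 0.20 without day 0, 0.16 without day 3 and 0.081 in cells of 4000 to 8000 UMIs. COX7A1 had the largest change (1.57 ± 0.47, adjusted p = 0.0221), with 0.237, 0.307, 0.294, 0.374 and 0.247 UMIs per 10000 in epithelial cells and 0.0941, 0.151, 0.0902, 0.0174 and 0.102 in T cells on days 0 to 14. SDHA (1.20), ATP5S (1.11), ATP5G1 (0.98) and NDUFV3 (0.97) followed, with the core complex I subunits NDUFV2 (0.79) and NDUFS1 (0.76) and the complex II anchor SDHC (0.68) also past the threshold. T cells of day 7 held 2304464 nuclear UMIs and epithelial cells of day 14 held 162092, so their COX7A1 levels rest on few UMIs. Stromal markers moved with COX7A1 in B cells, and their part here was not tested. Leaving out each library in order of age gave 5, 6, 5, 7 and 11 higher and 0, 0, 5, 1 and 2 lower genes. Of all genes 18.1% to 28.3% were higher in these fits and 14.9% to 25.6% lower. NDUFA4 was lower (−0.76 ± 0.24, adjusted p = 0.0299). In cells of 4000 to 8000 UMIs 6 genes were higher, against 21.2% of all genes there, and 2 lower, against 22.7% (COX7A1, NDUFA7, NDUFB2, NDUFS6 and NDUFV3 were higher in both settings), and SDHC turned to −0.082 there.

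T cells and B cells had similar nuclear sums. The ratio of T to B cells was 1.07, 1.0, 0.934, 1.13, 0.934 and 0.921 from day 0 to day 21, with a mean log2 ratio of −0.0076 ± 0.12 (n = 6, above 0 in 2 of 6). The mitochondrial sum was lower in T cells in all 6 libraries (0.923, 0.782, 0.955, 0.923, 0.961 and 0.800, mean log2 ratio −0.17 ± 0.13). By depth it was below 1 in 4 of 5 libraries at 1000 to 2000 UMIs and in 6 of 6 in both of the next bins, but in cells of at least 8000 UMIs the ratio was 1.03 and above 1 in 2 of 5 libraries. Within the nuclear sum complex I was at 0.12 ± 0.10 and above 0 in 6 of 6 libraries. Complex V was at −0.13 ± 0.17, within its spread, and above 0 in 2 of 6. Gene by gene the median log2 fold change (edgeR) was 0.016 in complex I and −0.17 in complex V, so no shift of complex I as a whole is shown.

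By edgeR 4 of 72 nuclear OXPHOS genes were higher in T than in B cells, against 18.6% of all genes, and 11 lower, against 20%. The higher genes were the accessory complex I subunits NDUFA13 (0.64 ± 0.10, adjusted p = 0.00124), NDUFA6 (0.34) and NDUFB10 (0.26) and the iron-sulfur subunit of complex II, SDHB (0.43 ± 0.10, adjusted p = 0.00944). NDUFA13, also known as GRIM-19, was at 3.58, 3.68, 3.50, 4.44, 4.12 and 5.56 UMIs per 10000 in T cells and at 2.17, 2.22, 2.84, 2.63, 2.41 and 2.75 in B cells, with no overlap between the lineages. On days 3, 14 and 21 complex I summed to 59.7, 58.76 and 63.49 in T cells and to 59.53, 57.15 and 60.61 in B cells. In these libraries the gap of NDUFA13 alone was near that of complex I or above it. SDHB was at 0.488, 0.578, 0.637, 0.521, 0.531 and 0.526 in T cells and at 0.353, 0.383, 0.484, 0.352, 0.431 and 0.320 in B cells. All 4 were higher in 6 of 6 libraries and in cells of 4000 to 8000 UMIs.

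Of the 11 lower genes 5 were of complex V (ATP5D, ATP5F1, ATP5G2, ATP5G3 and ATP5L) and 4 encode no subunit. ATP5S, a factor linked to ATP synthase, had the largest difference (−1.42 ± 0.19, adjusted p = 0.000555), with 0.116, 0.0993, 0.117, 0.156, 0.125 and 0.0701 UMIs per 10000 in T cells and 0.216, 0.233, 0.244, 0.359, 0.488 and 0.411 in B cells. SDHAF1 was at −0.53, ATP5F1, the b subunit of the peripheral stalk, at −0.43, ATP5D, the delta subunit of the central stalk, at −0.42 and COX6C at −0.41. The 5 lower calls of ATP5D, ATP5G3, ATP5L, ATP5S and COX6C were kept in cells of 4000 to 8000 UMIs, where 7 genes were higher, against 15.4% of all genes there, and 5 lower, against 16.7%. Without the library of day 1, day 7 or day 14 the number of higher genes was 2, and without that of day 0, day 3, day 14 or day 21 the number of lower genes was 7. Of all genes 16.6%, 14.3% and 15.3% were higher without day 1, day 7 and day 14. The lower share was 17.2%, 16.6%, 16.9% and 17.2% without day 0, day 3, day 14 and day 21.

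Of the mitochondrial mRNAs 11 were lower in T than in B cells, against 20% of all genes, and 1 higher, against 18.6%. The lower ones went from −0.19 (COX1) to −0.72 (ATP8, ± 0.15, adjusted p = 0.00581), with CYTB at −0.45, ND1 and ND2 at −0.46, ND3 at −0.34 and ND5 at −0.32. ND4L (−0.23) did not pass. ND6 went the other way, at 0.37 ± 0.11 (adjusted p = 0.0253), and is the gene of this set that lies on the other strand of the mitochondrial genome. Its level was 2.21, 2.14, 1.87, 0.909, 1.18 and 1.26 UMIs per 10000 in T cells and 1.68, 1.45, 1.51, 0.659, 0.657 and 1.17 in B cells, higher in T cells in 6 of 6 libraries. It passed in cells of 4000 to 8000 UMIs (0.46) and in 3 of the 6 fits that left out a library. The number of lower mRNAs was 7 without day 0, 6 without day 1, 7 without day 21 and 9 to 11 without the others. Of all genes 17.2%, 17.0% and 17.2% were lower without day 0, day 1 and day 21, and 15.7% to 16.9% without the others.

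The contrast of dividing with other B cells had more nuclear OXPHOS genes called than the other 3. The balance of higher and lower calls depended on depth (45 and 4 among all cells, 31 and 2 after thinning to 1000 UMIs, 11 and 13 at 4000 to 8000 UMIs). Counts do not rank the size of a difference across the contrasts. Simulated recovery at 2-fold was 84% here and 0%, 10% and 58% in the other 3. Cycling B cells (at least 3 UMIs of MKI67, TOP2A, CDK1 and CCNB1 together) numbered 81, 158, 1223, 1884, 6197 and 3154 from day 0 to day 21, and B cells with 0 UMIs of these genes 2045, 3161, 5881, 7132, 6252 and 7193. The nuclear sum was 171.3, 187.0, 217.6, 180.5, 169.9 and 177.8 UMIs per 10000 in cycling cells and 116.3, 138.5, 150.5, 144.2, 146.1 and 167.2 in non-cycling cells, higher in cycling cells in 6 of 6 libraries (mean log2 ratio 0.36 ± 0.18). The gap was widest on day 0 (1.47-fold) and narrowest on day 21 (1.06-fold). With ribosomal protein genes out of the denominator it was 0.21 ± 0.14 on the log2 scale and above 0 in 5 of 6 libraries. The mitochondrial sum was 548.6, 441.9, 584.7, 481.4, 456.6 and 679.1 in cycling and 746.2, 590.6, 659.2, 611.8, 535.8 and 667.8 in non-cycling cells, lower in cycling cells in 5 of 6 libraries (−0.26 ± 0.18), with day 21 the exception.

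With edgeR 45 of 72 nuclear OXPHOS genes were higher in cycling B cells, against 19.5% of all genes, and 4 lower, against 30.8%. Their median log2 fold change was 0.32 and that of all genes −0.12. In complex I 25 of 37 genes were higher, in complex II 2 of 4, in complex III 2 of 2, in complex IV 4 of 9 and in complex V 11 of 15. In cells of 4000 to 8000 UMIs 7 were higher and 5 lower in complex I, 0 and 1 in complex II, 0 and 0 in complex III, 0 and 3 in complex IV and 3 and 4 in complex V. Among all cells 39 of the 45 calls held without any 1 library. ATP5G3, a subunit c gene, led with 0.80 ± 0.11 (adjusted p = 0.000169). Its level was 9.29, 11.4, 12, 10.6, 9.69 and 8.97 UMIs per 10000 in cycling and 3.61, 5.15, 4.90, 6.43, 6.56 and 6.93 in non-cycling cells, with no overlap. ATP5G1 (0.16) and ATP5G2 (−0.15), which encode the same mature protein, did not pass. The NADH-binding subunits NDUFV2 (0.75 ± 0.10) and NDUFV1 (0.71 ± 0.09, adjusted p = 6.5e-05) followed, with ATP5S at 0.66. NDUFV1 was at 0.912, 0.939, 1.07, 1.05, 1.01 and 0.843 in cycling and at 0.409, 0.473, 0.517, 0.629, 0.641 and 0.630 in non-cycling cells.

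The core subunits NDUFS1 (0.48), NDUFS3 (0.46), NDUFS7 (0.32) and NDUFS8 (0.30) of complex I rose too, as did SDHA (0.37) and SDHB (0.27) of complex II, COX5B (0.42) of complex IV and ATP5A1 (0.42) and ATP5B (0.48) of complex V, while SDHC (−0.024) and SDHD (−0.074) did not pass. None of the 9 core subunits that rose passed in cells of 4000 to 8000 UMIs, where their log2 fold changes lay between −0.11 (ATP5A1) and 0.14 (COX5B). The 4 lower genes were COX7A1 (−1.37 ± 0.22, adjusted p = 0.000521), SDHAF1 (−0.34), NDUFA12, an accessory complex I subunit (−0.21), and COX6C (−0.19). COX7A1 fell while its isoform COX7A2 rose by 0.42. The COX7A1 level was 0.120, 0.162, 0.0511, 0.0200, 0.00701 and 0.00984 in cycling and 0.167, 0.181, 0.201, 0.0452, 0.0253 and 0.0204 in non-cycling B cells. The stromal markers were at 0.241, 0.423, 0.104, 0.00627, 0.0140 and 0.0370 per 10000 in cycling and at 0.697, 0.965, 0.812, 0.0155, 0.00257 and 0.00652 in non-cycling B cells, lower in cycling cells in the first 4 libraries and higher in the last 2, and their part in the difference of COX7A1 was not tested.

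Of the mitochondrial mRNAs 9 were lower in cycling B cells, against 30.8% of all genes, and 0 higher (0 also at an unadjusted p under 0.05 and with DESeq2). ND6 was at −0.62 ± 0.09 (adjusted p = 0.000235), COX2 at −0.49, ATP6 at −0.43, COX1 at −0.42, COX3 at −0.37, ND2 at −0.36, ND3 and ND5 at −0.29 and CYTB at −0.27. ND1 (−0.34, adjusted p = 0.0752), ND4, ND4L and ATP8 did not pass. COX2 was at 116.5, 93.6, 136.4, 139.9, 106.9 and 153.3 UMIs per 10000 in cycling and at 184.9, 134.6, 168.4, 179.6, 135.4 and 154.8 in non-cycling cells, close together on day 21 and apart in the other 5 libraries. ND6, COX1, COX2, COX3 and ATP6 were called without any 1 library. Leaving out each library in order of age, from day 0 to day 21, gave a count of 5, 5, 6, 5, 8 and 10, and of 2, 2, 3, 2, 3 and 3 for the lower nuclear genes. The share of all genes called lower in these fits was 25.6%, 24.9%, 24.1%, 23.1%, 25.6% and 27.2%.

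Cycling B cells also held more UMIs per cell, a difference that the rule in part brings with it. It asks for at least 3 UMIs of the cycling genes in 1 group and 0 in the other, so deep cells pass into the first more readily. The median of cycling cells was 6419, 8983.5, 10260, 7755, 6575 and 6373.5 UMIs from day 0 to day 21, and that of non-cycling cells 3334, 3651, 3854, 3654, 3402.5 and 3184. In cells of 4000 to 8000 UMIs the ratio of nuclear sums was 1.09 (above 1 in 6 of 6 libraries), in cells of at least 8000 UMIs 1.20 (6 of 6), and that of mitochondrial sums was 0.913 in both (above 1 in 2 of 6 and in 1 of 6). In shallower cells, with 4 libraries to compare, the mitochondrial ratio turned to 1.49 at 2000 to 4000 UMIs and 1.69 at 1000 to 2000 UMIs, above 1 in 4 of 4 libraries each, and the nuclear ratio was 1.12 (4 of 4) and 0.964 (2 of 4). The lower mitochondrial sum of cycling cells was therefore not found in cells under 4000 UMIs. In the window of 4000 to 8000 UMIs 11 nuclear OXPHOS genes were higher, against 19.5% of all genes there, and 13 lower, against 29.4%, with a median of 0.036. All 11 had been higher among all cells, and they included ATP5G3 (0.28), ATP5J, ATP5L, ATP5S (0.77), NDUFA5, NDUFB3, NDUFB6, NDUFB7, NDUFV1 (0.23) and NDUFV2 (0.28). ATP5A1 and SDHA turned to −0.11 and −0.082 and did not pass there, and the subunit c genes ATP5G1 (−0.68) and ATP5G2 (−0.51) were lower. Of the mitochondrial mRNAs ND2, ND6, COX2, COX3 and ATP6 stayed lower. With each cell thinned to 1000 UMIs, 31 of 71 nuclear OXPHOS genes were higher, against 18.2% of all genes, and 2 lower, against 22.9%. The median of these nuclear genes was then 0.22. The size of the nuclear difference therefore depends on the depth of the cells compared and on how depth is matched.

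**Figure D5:**
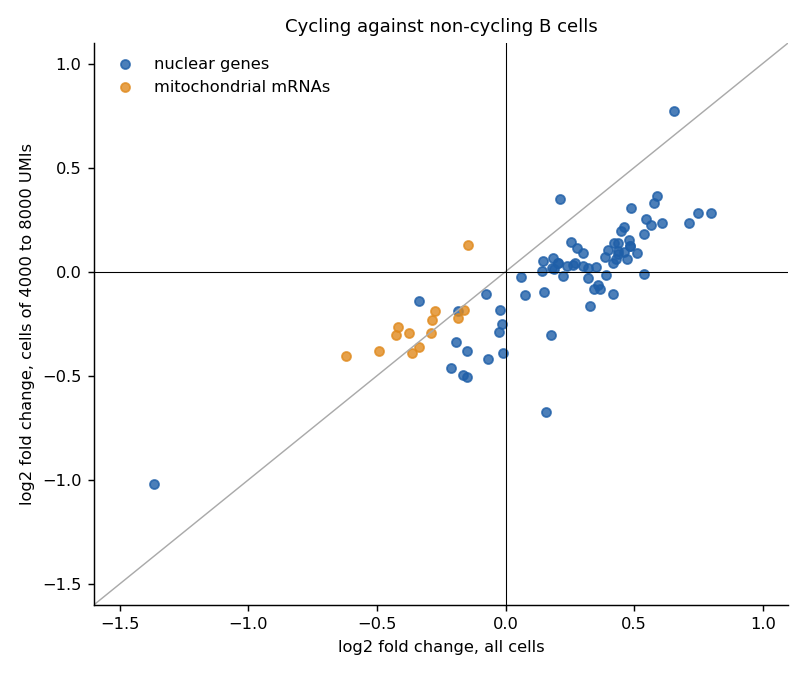
Log2 fold change (edgeR) of each OXPHOS gene in cycling against non-cycling B cells, with all cells on the x axis and cells of 4000 to 8000 UMIs on the y axis; blue points are nuclear genes, orange points mitochondrial mRNAs, and the grey line marks equal values. Most nuclear points lie below the line, with a median of 0.32 on the x axis and 0.036 on the y axis, while the mitochondrial points stay near it.

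Genes of neighbouring mitochondrial pathways were read from the same fits over all cells, and their counts were not computed at matched depth. In cycling B cells, where 19.5% of all genes were higher and 30.8% lower, 9 of 15 genes of the citric acid cycle were higher and 0 lower, with PDHB, a subunit of pyruvate dehydrogenase, at 0.90 and SUCLA2 at 0.61. In glycolysis 9 of 14 were higher and 2 lower (PFKP 1.14, TPI1 0.61), of the mitochondrial ribosome 39 of 75 were higher and 1 lower, of the mobile electron carriers and their dehydrogenases 3 of 4 were higher (ETFDH 1.0), of carriers and porins 5 of 7 were higher (the ADP/ATP carrier SLC25A5 0.68), and UCP2, an inner membrane carrier, was at 1.22. Assembly factors were mixed, with 4 of 27 higher and 5 lower. Between epithelial and B cells, where 23.1% of all genes were higher and 30.8% lower, 3 of 15 citric acid cycle genes were higher (among them OGDH 1.72 and IDH3A 1.1) and 0 lower, a count of higher genes near the background, and 1 of 14 glycolysis genes was higher and 6 lower, led by the lactate dehydrogenase gene LDHB (−3.30). Of 18 genes of mitochondrial transcription and biogenesis 3 were higher, with the coactivator PPARGC1A at 5.86, and 6 lower, with the mitochondrial transcription factor TFAM at −1.37, and UCP2 was at −5.67. Against T cells 7 of 15 citric acid cycle genes were higher in epithelial cells (among them OGDH 1.68), beside 24.9% of all genes. Between T and B cells 2 of 15 were higher (IDH3A 1.1, OGDH 0.36), below the 18.6% of all genes, and 0 were lower in both comparisons.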

How the data were processed

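Sequenced 10x Chromium libraries of ileal mucosa, 1 for each of 6 ages, were read as raw counts of UMIs per gene and barcode, which the authors had made with Cell Ranger 3.1.0 against Sscrofa11.1 and deposited without normalization. The series text names the cecum where the labels name the ileum. Matrices were read with Python 3.11.15 (numpy 2.4.6, pandas 2.3.3, scipy 1.17.1). Barcodes with at least 1000 UMIs and 500 genes were kept, no doublet caller was run, and cells that met the rules of 2 lineages were left out. How the cells of the piglets of an age were combined is not given in the sources used here, so p-values measure the spread between libraries. These libraries differ in age, so that spread holds age as well as sampling and is no replicate error at a given age.

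UMIs were summed per library and lineage (at least 20 cells) and tested with the quasi-likelihood test of edgeR 4.0.16 (R 4.3.3), TMM scale, library as block, Benjamini-Hochberg adjustment over all genes, threshold 0.05. The standard error is the log2 fold change divided by the square root of F. Ages were compared by level alone, at 1.5-fold and at least 30 UMIs over both libraries. Named genes were all mitochondrial mRNAs, the 5 nuclear members of largest change per direction and comparison among those called, core catalytic subunits and known isoform pairs, with at most 5 genes of each other pathway list. Genes named otherwise, to spell out a count, were chosen after their values were seen. Members and lists were chosen with earlier results of these data known. Simulated data with 200 changed genes gave a recovery at 2-fold of 0%, 10%, 58% and 84% for epithelial against B (12582 genes), epithelial against T (9843), T against B (10866) and cycling against non-cycling cells (11721). Alternatives were DESeq2 1.42.0, its size factors, no filter on low counts, mitochondrial genes out of the fit, cells thinned to 1000 UMIs, other rules for cells and lineages, each library left out, ribosomal protein genes out of the denominator and cells of 4000 to 8000 UMIs. Values of some genes that the rule names are not reported here.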

Additional observations from a re-analysis of the deposited data

Results flagged for a closer look

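The nuclear OXPHOS sum of cycling B cells on day 3 was 217.6 UMIs per 10000 nuclear UMIs, far above the other 5 libraries, which held 169.9 to 187.0. Sums were examined in this way in 18 groups of libraries, and chance alone marks about 1 group in 20. The cycling B cells of day 3 had a median of 10260 UMIs and those of the other libraries 6373.5 to 8983.5. Among cells of 4000 to 8000 UMIs the day 3 value was 167.4, within the 147.2 to 171.5 of the other libraries, and among cells of at least 8000 UMIs it was 225.0, above their 179.9 to 196.2.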

How the results depend on the processing

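The depth window and the denominator free of ribosomal protein genes were chosen after seeing the data, and the cause of the changes given here was not tested. For epithelial against B cells the 5 higher nuclear genes became 10 with cells under a mitochondrial share of 25%, 9 with cells of 2 lineages kept, 11 with raised lineage minima, 8 in the 4000 to 8000 UMI window, 3 after thinning, 11 with DESeq2, 9 with its size factors and 8 without mitochondrial features, and 1 to 9 with a library left out. The 10 lower became, in the same order with the window and DESeq2 passed over, 5, 5, 4, 3, 5 and 5, and 6 without a filter, and 1 to 7 with a library left out. The 0 higher mitochondrial mRNAs became 1 under that share, 5 with cells of 2 lineages kept, 1 with raised minima, 8 in the window, 2 with DESeq2, 1 with its size factors and 1 without a filter, and 0 to 1 with a library left out. For epithelial against T cells the 13 higher became 6 in the window and 5 to 11 with a library left out, the 1 lower became 2 with raised minima, 2 in the window, 3 with DESeq2, 2 without a filter and 2 without mitochondrial features, and 0 to 5, and the 11 higher mitochondrial mRNAs became 1 to 12. For T against B cells the 4 higher became 2 with cells of 2 lineages kept, 7 in the window, 1 after thinning, 2 without a filter and 2 to 4 with a library left out, and the 11 lower became 7, 5 and 5 in the first 3 of these and 7 to 9. The 1 higher mitochondrial mRNA became 0 after thinning, 0 without a filter and 0 to 1, and the 11 lower became 7 in the window and 6 to 11. For cycling B cells the 45 higher became 11 in the window, 31 after thinning and 39 to 50 with a library left out. The 4 lower became 13 in the window, 2 with raised minima, thinning, no filter or without mitochondrial features, and 2 to 3. The 9 lower mitochondrial mRNAs became 5 with raised minima, 5 in the window, 3 after thinning, 5 without a filter and 5 to 10. The share of all genes called moved too. Over the alternatives 18.7% to 27.6% were higher and 17.7% to 31.5% lower for epithelial against B cells. For epithelial against T cells it was 18.1% to 28.3% and 14.4% to 26.1%, for T against B cells 10.6% to 19.9% and 14.7% to 22.1%. For cycling B cells it was 15.1% to 22.5% and 17.3% to 30.7%. The mean log2 ratio of nuclear sums, free of ribosomal protein genes, was 0.11 for epithelial against B and 0.13 for epithelial against T cells. In the window the mitochondrial ratios were 1.11 and 1.25 and the nuclear ratio of cycling cells 0.13. The ratio of the nuclear sums of day 21 to day 0 in B cells was 1.17 free of ribosomal protein genes, 1.45 as a mean over cells, 1.26 with cells of 2 lineages kept, 1.35 with raised minima and 1.40 in the window, and that of the mitochondrial sums 0.921 over nuclear UMIs, 1.02 (reversed) as a mean over cells, 0.973 under the mitochondrial share, 0.895 with cells of 2 lineages kept, 0.918 with raised minima and 0.815 in the window. In T cells these were 1.05, 1.21, 1.08 (cells of 2 lineages kept) and 1.3 (window) for nuclear, and 0.791 over nuclear UMIs, 0.812 as a mean over cells and 0.875 under the share for mitochondrial sums. In epithelial cells, day 7 to day 0, they were 0.746, 0.735 as a mean over cells, 0.940 under the share, 0.878 with cells of 2 lineages kept and 0.952 with raised minima for nuclear, and 1.47, 0.901 (reversed), 1.01 and 0.865 (reversed) for mitochondrial sums, and 1.00 in the window. At 2-fold the counts between ages were 12 higher nuclear genes and 0 lower mitochondrial mRNAs in B cells (27.2% of all genes higher, 14.5% lower), 2 higher and 1 lower nuclear genes and 2 lower mitochondrial mRNAs in T cells (16.0% and 11.4%), and 1 higher, 1 lower and 1 lower in epithelial cells (17.5% and 14.4%), and with at least 100 UMIs 0 nuclear genes were lower in T cells. Of 1105 alternative values for named genes 893 kept direction and side of the threshold, 209 lost the call and 3 reversed, all in the window: SDHC in epithelial against T cells (−0.082), and ATP5A1 (−0.11) and SDHA (−0.082) in cycling B cells. No paired analysis was possible because each age has 1 library, as far as ages are compared, while the contrasts between lineages were paired by library in each fit.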

Other observations

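COX2 took 29.3% of the mitochondrial mRNA UMIs of B cells on day 7 and 22.6% to 24.8% in the other libraries, and barcodes of at most 100 UMIs gave 31.2% on day 7. ATP8 took 0.111% of them in B cells on day 3 and 0.0206% to 0.0425% in the other libraries. Both were noticed after the values were seen.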
